A study of Mus musculus with 6 samples.

Results

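Marginal zone and follicular B cells are the 2 main mature B cell populations of the mouse spleen. Here 9 genes that separate them were read in B cells with and without the tetraspanin CD37. The marginal zone side held Cr2, Cd1d1, S1pr3, Dtx1, Notch2 and Asb2, and the follicular side held Fcer2a, Klf2 and Cd55. These 9 genes were chosen by name, with 6 on the first side and 3 on the second, out of 19935 genes measured. Each of the 9 had 1 probe set of its own, so that no choice between probe sets was needed. Wild-type mice (WT, 3 animals) were compared with mice of genotype Cd37 -/- (CD37KO, 3 animals), littermates on a C57BL/6J background with an age of 3 months in the labels and an older age in the methods. No treatment, transgene or Cre line is named for either group, so the deletion was not limited to B cells. From each spleen the cells that carry CD43 were removed with magnetic beads, and RNA of the remaining B cells, which carry B220, was hybridised to 1 Affymetrix mouse gene array per mouse. All values are log2 expression after robust multi-array averaging (RMA), so that a difference of 1 is a doubling.

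Follicular B cells recirculate through the B cell follicles and answer T cell dependent antigens, while marginal zone B cells stay at the border of the white pulp, where blood passes, and respond quickly to blood-borne antigens. The marginal zone fate needs NOTCH2, which is bound by the ligand DLL1 on stromal cells, is cut by ADAM10 and gamma-secretase, and then acts in the nucleus with the DNA-binding protein RBPJ. Marginal zone cells carry much complement receptor CR2 (CD21) and CD1d and little CD23, whereas follicular cells carry much CD23. Several of these genes are also transcribed in the other population, so that a level in unsorted splenic B cells is a mean over both.

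Dtx1 is a known target of Notch signalling, and Cr2 encodes a usual sorting marker of marginal zone cells. Their upstream sequences are shown because RBPJ recognises a short core, TGGGAA. The sequences are the 250 bases before the annotated start in RefSeq on GRCm38.p6, 5′ to 3′ on the strand of the gene, with a TGGGAA match in capitals. Cr2 lies at chr1:195176720-195176969 on the minus strand and Dtx1 at chr5:120711670-120711919 on the minus strand.
Cr2: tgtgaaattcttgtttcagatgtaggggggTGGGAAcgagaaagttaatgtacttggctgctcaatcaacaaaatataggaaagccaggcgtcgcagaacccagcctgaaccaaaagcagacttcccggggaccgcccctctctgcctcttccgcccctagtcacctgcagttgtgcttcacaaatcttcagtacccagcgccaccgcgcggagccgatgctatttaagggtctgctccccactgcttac
Dtx1: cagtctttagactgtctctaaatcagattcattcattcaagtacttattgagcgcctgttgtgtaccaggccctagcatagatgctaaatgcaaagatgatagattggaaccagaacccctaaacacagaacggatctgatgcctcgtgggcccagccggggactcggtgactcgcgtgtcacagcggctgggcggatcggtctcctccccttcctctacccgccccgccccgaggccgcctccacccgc
The Cr2 window held 1 match, which begins 220 bases before the start, and the Dtx1 window held none. TGGGAA was searched on both strands. Of 32851 such windows in the RefSeq table, 21.6% held it. Windows were found for 8 of the 9 genes, 11 windows in all, and 3 of them held the core, 1 of Cr2 and 2 of the windows of Fcer2a. Cd1d1 had no entry. A match describes the letters and was not tested as a binding site.

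Cd37 itself had a log2 level of 11.99, 11.83 and 12.08 in the WT arrays and 8.15, 8.17 and 8.17 in the CD37KO arrays, as the labels imply (log2 difference -3.80, adjusted p = 1.37e-07 from limma). Of 9 B cell genes measured, all were above background in all 6 arrays, with array means of 11.60 to 11.67 in WT and 11.60 to 11.63 in CD37KO cells. Background was a log2 level of 5.77, the 95th percentile of 1015 olfactory receptor genes. Spn, which encodes the depleted CD43, was at 6.85 to 6.93 in WT and 6.83 to 7.09 in CD37KO cells. Of 7 genes of follicular dendritic cells, which also carry CR2, 3 were above background in all arrays, with array means of 5.75 to 5.97 in WT and 5.75 to 5.79 in CD37KO cells. Of 17 macrophage and monocyte genes, 15 were above background in all arrays. Their array means were 9.22, 8.41 and 8.50 in WT and 9.34, 8.21 and 9.32 in CD37KO cells. The means of 16 neutrophil genes, of which 6 were above background throughout and 13 were higher in CD37KO cells at an unadjusted p under 0.05, were 6.06, 5.87 and 6.09 in WT and 7.53, 6.35 and 6.92 in CD37KO cells, without overlap. The neutrophil granule gene Ngp had the smallest p of that list (log2 difference 2.07, adjusted p = 0.258 from limma), and of the macrophage and monocyte genes Lyz2, for lysozyme, alone passed without adjustment (log2 difference 0.58, adjusted p = 0.801 from limma). Over all 19935 genes, limma called 11 as changed at an adjusted p under 0.05 (0.0552%), and 1186 (5.95%) passed without adjustment.

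Of the 9 chosen genes, none on either side passed the test between WT and CD37KO B cells. None of the 9 was called (0 of 9, beside 0.0552% of all genes), their adjusted p from limma ran from 0.801 to 0.965, and none passed an unadjusted p under 0.05 either, beside 5.95% of all genes (2.96% higher and 2.99% lower in CD37KO cells). Ordinary least squares called none after adjustment, with 1 gene, Dtx1, under an unadjusted p of 0.05, beside 5.83% of all genes in that fit. For 8 genes, all but Asb2, the 95% intervals from limma lay between 0.742-fold and 1.15-fold of WT, each interval being for 1 gene alone. All 9 genes lay above background in all 6 arrays, also with background set at the 90th or the 99th percentile. A difference in a bulk sample cannot tell fewer cells of one population from less RNA per cell.

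**Figure D1:**
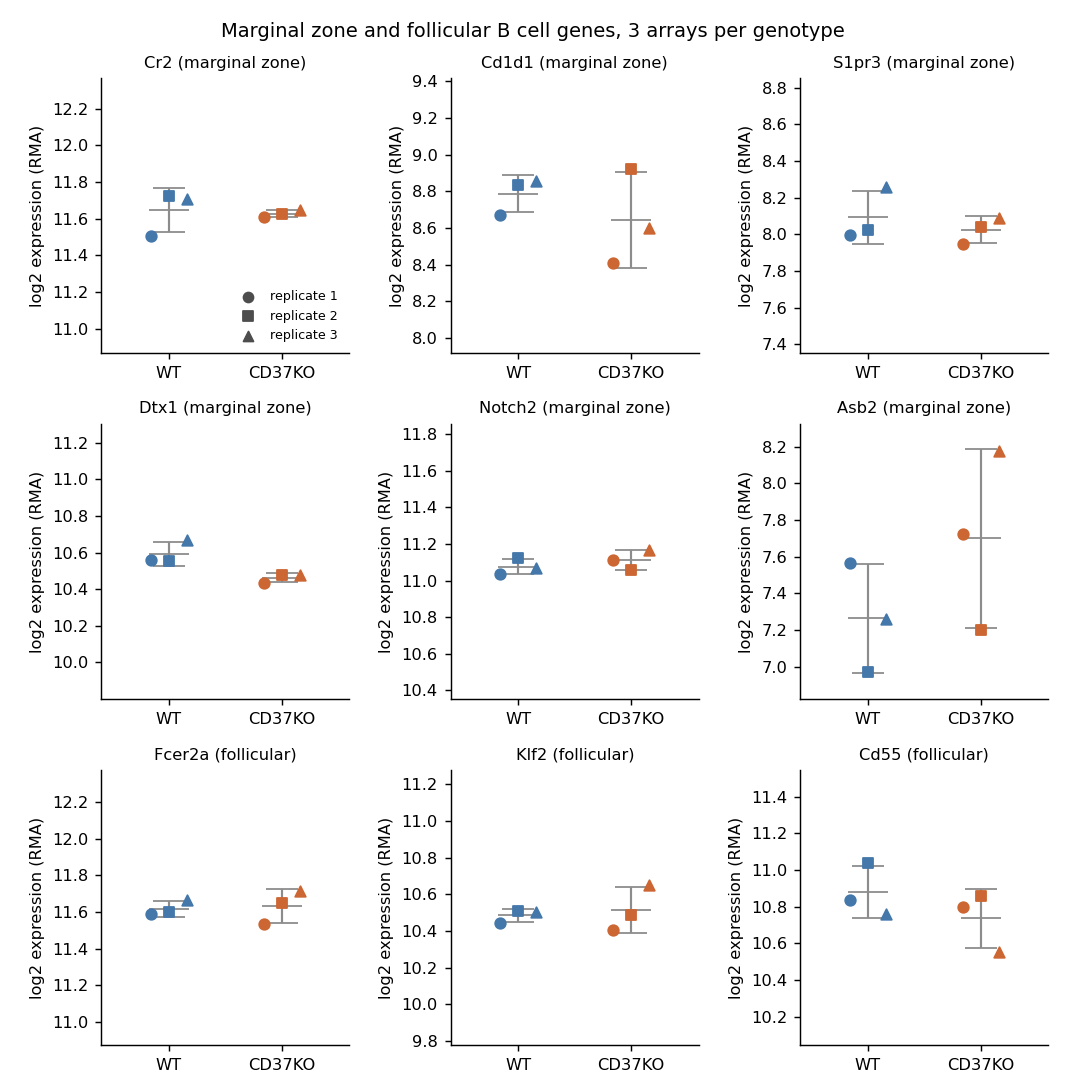
Log2 expression (RMA) of the 9 genes in 3 WT (blue) and 3 CD37KO (orange) arrays, with circle, square and triangle for replicates 1, 2 and 3 and grey bars for mean and SD; each panel spans 1.5 log2 units. Dtx1 is the only gene without overlap between the genotypes, and Asb2 has the widest spread, from 6.97 to 8.18.

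NOTCH2 is the receptor on which the marginal zone fate depends. Notch2 was at 11.04, 11.12 and 11.07 in the WT arrays and at 11.11, 11.06 and 11.17 in the CD37KO arrays. The groups overlapped, and the arrays differed by at most 0.13 on the log2 scale. Its log2 difference was 0.04 (standard error 0.062, 95% interval -0.11 to 0.18, adjusted p = 0.909 from limma).

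DTX1, or deltex, is a ubiquitin ligase that binds the intracellular part of Notch receptors and whose gene is turned on by Notch. Dtx1 was at 10.56, 10.55 and 10.67 in WT and at 10.43, 10.48 and 10.48 in CD37KO cells. All 3 CD37KO arrays lay below all 3 WT arrays, as for 7.57% of all genes in that direction, and 11.9% in either. The log2 difference was -0.13 (standard error 0.062, 95% interval -0.27 to 0.01, adjusted p = 0.801 from limma), and an exact two-sided permutation test gave p = 0.10, the smallest that 3 arrays against 3 can give. The spread within genotypes was small (pooled SD 0.049, against a median of 0.103 over the 9874 genes above background).

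CR2 binds fragments of complement C3, and in the mouse the same gene also makes CR1. Cr2 was at 11.51, 11.72 and 11.71 in WT and at 11.61, 11.62 and 11.65 in CD37KO cells. The CD37KO arrays lay inside the range of the WT arrays. The log2 difference was -0.02 (standard error 0.074, 95% interval -0.19 to 0.15, adjusted p = 0.965 from limma).

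CD1d presents lipid antigens to NKT cells. Cd1d1 was at 8.67, 8.83 and 8.86 in WT and at 8.41, 8.92 and 8.60 in CD37KO cells. The lowest and the highest value were both from CD37KO mice, replicates 1 and 2. Its CD37KO mean minus its WT mean was -0.14 in log2 units (standard error 0.125, 95% interval -0.43 to 0.14, adjusted p = 0.833 from limma). Cd1d2, a near-identical copy with a probe set of its own, had a mean of 6.30 in both genotypes, with an SD of 0.21 over the WT arrays and 0.28 over the CD37KO arrays. How far RNA of one copy binds the probes of the other was not tested.

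S1PR3 is a receptor for sphingosine-1-phosphate, the lipid that holds marginal zone cells near the blood through S1PR1 and S1PR3. S1pr3 was at 7.997, 8.02 and 8.26 in WT and at 7.95, 8.04 and 8.09 in CD37KO cells. The groups overlapped, with the highest value in WT replicate 3 and the lowest in CD37KO replicate 1. CD37KO minus WT came to -0.07 on the log2 scale (standard error 0.085, 95% interval -0.26 to 0.13, adjusted p = 0.88 from limma).

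ASB2 is the substrate-binding part of a cullin-5 ubiquitin ligase that directs filamins to degradation. Asb2 was at 7.56, 6.97 and 7.26 in WT and at 7.72, 7.20 and 8.18 in CD37KO cells. CD37KO replicate 3 stood highest and CD37KO replicate 2 lay below 2 of the 3 WT arrays. CD37KO exceeded WT by 0.44 on the log2 scale, a fold of 1.35 (standard error 0.235, 95% interval -0.10 to 0.98, adjusted p = 0.801 from limma). Its pooled SD of 0.404 was larger than that of 97.9% of the genes above background, so that its interval, up to 1.97-fold, leaves far more room than those of the other 8.

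FCER2A is CD23, the low-affinity IgE receptor and the usual sorting marker of follicular cells. Fcer2a was at 11.59, 11.60 and 11.66 in WT and at 11.54, 11.65 and 11.71 in CD37KO cells. Its WT arrays lay inside the range of the CD37KO arrays. The log2 difference was 0.02 (standard error 0.068, 95% interval -0.14 to 0.17, adjusted p = 0.965 from limma).

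KLF2 is a transcription factor that keeps B cells in the follicular state and drives homing genes. Klf2 was at 10.44, 10.51 and 10.50 in WT and at 10.40, 10.49 and 10.65 in CD37KO cells, with CD37KO arrays at both ends. CD37KO minus WT gave 0.03 in log2 units (standard error 0.076, 95% interval -0.14 to 0.21, adjusted p = 0.944 from limma). Among genes that KLF2 is known to drive, S1pr1, the main egress receptor, had a log2 difference of -0.16 (adjusted p = 0.801 from limma). Itgb7, an integrin chain for gut homing, had one of 0.04 (adjusted p = 0.909 from limma).

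CD55, or decay-accelerating factor, protects cells from complement on their own surface. Cd55 was at 10.84, 11.04 and 10.76 in WT and at 10.80, 10.86 and 10.55 in CD37KO cells. The 2 groups overlapped, with the lowest value in CD37KO replicate 3. The log2 difference was -0.14 (standard error 0.102, 95% interval -0.38 to 0.09, adjusted p = 0.814 from limma).

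**Figure D2:**
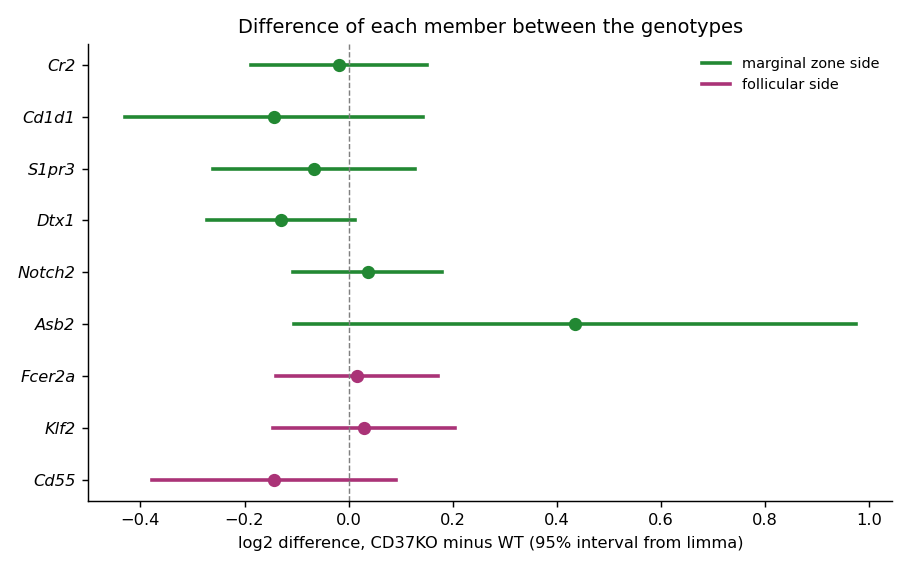
Log2 difference between CD37KO and WT arrays (3 each) for the 9 genes, as points with 95% intervals from limma, with the marginal zone side in green and the follicular side in purple. Every interval includes 0, and that of Asb2 is the widest, from -0.10 to 0.98.

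The marginal zone side and the follicular side were then set against each other in each array. The question was whether the balance of both populations differed between the genotypes. Each gene was centred on its mean over the 6 arrays, and the mean of the 3 follicular genes was subtracted from that of the 6 marginal zone genes. This difference was -0.0069, -0.12 and 0.05 in WT replicates 1 to 3 and 0.02, -0.05 and 0.11 in CD37KO replicates 1 to 3. The ranges overlapped, and the genotype mean was -0.03 ± 0.09 (SD, n = 3) for WT against 0.03 ± 0.08 (SD, n = 3) for CD37KO. The genotypes thus differed by 0.05 on the log2 scale, less than the spread of 0.08 within them. Without Asb2 the value was -0.03 and without Cd55 it was -0.0045, so the direction rested on these members. It also turned, to -0.03, with the mean of the neutrophil genes as a covariate, and it fell to 0.0040 without WT replicate 2 and to 0.0078 without CD37KO replicate 3. The median log2 difference was -0.04 over the 6 marginal zone genes, 2 positive and 4 negative, and 0.02 over the 3 follicular genes, 2 positive and 1 negative. It was -0.02 over all genes and 0.02 over the genes above background.

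**Figure D3:**
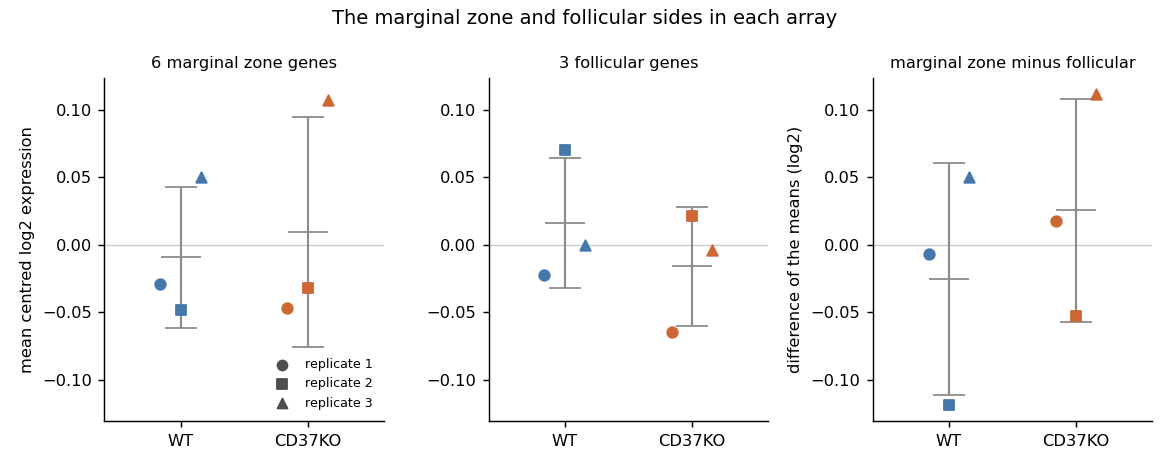
Mean centred log2 expression of the 6 marginal zone genes, of the 3 follicular genes and their difference in each of 3 WT (blue) and 3 CD37KO (orange) arrays, with grey bars for mean and SD. The genotypes overlap in all 3 panels, and the difference runs from -0.12 to 0.05 in WT and from -0.05 to 0.11 in CD37KO arrays.

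Asb2 and Cd1d1 varied most among the marginal zone genes, with ranges of 1.21 and 0.52 on the log2 scale over the 6 arrays. Asb2 was highest in CD37KO replicates 3 and 1 and WT replicate 1, and Cd1d1 was lowest in the same 3 arrays. The macrophage and monocyte genes had their 3 highest means there too, 9.32, 9.34 and 9.22, against 8.21 to 8.50 in the other arrays. With that mean as a covariate, the log2 difference of Asb2 was 0.28 in place of 0.44 and that of Cd1d1 -0.06 in place of -0.14. With the neutrophil mean as a covariate they were -0.01 and 0.25. The neutrophil mean did not overlap between the genotypes, so that the fit separates it poorly from genotype. Whether RNA of other cells had a part in the values of Asb2 and Cd1d1 was not tested. With single arrays left out in turn, Asb2 ran from 0.20 without CD37KO replicate 3 to 0.68 without CD37KO replicate 2, and Cd1d1 from -0.03 without CD37KO replicate 1 to -0.28 without CD37KO replicate 2. Without CD37KO replicate 2 both passed an unadjusted p under 0.05, as did 12.7% of all genes, and neither passed after adjustment (lowest adjusted p 0.260 from limma).

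**Figure D4:**
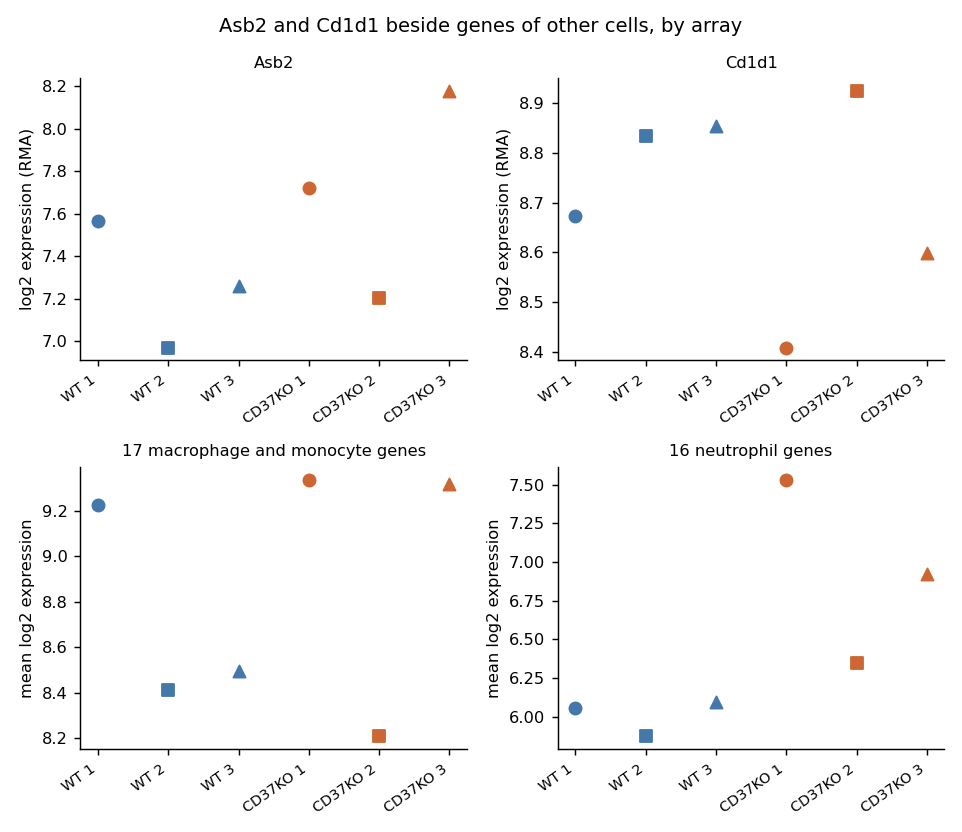
Log2 expression (RMA) of Asb2 and Cd1d1 and mean log2 expression of 17 macrophage and monocyte genes and 16 neutrophil genes in each array, with WT in blue and CD37KO in orange; axes differ between panels and do not start at 0. WT replicate 1 and CD37KO replicates 1 and 3 are highest for Asb2 and the macrophage genes and lowest for Cd1d1.

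The genes around these markers were taken from 11 lists of 126 measured genes. None was called after adjustment, and 6 passed an unadjusted p under 0.05 (4 higher and 2 lower in CD37KO cells), 4.76% against 5.95% of all genes. Of 12 further marginal zone genes, Plac8 had a log2 difference of 0.16 (unadjusted p = 0.0361, adjusted p = 0.801 from limma) and Cd36, the scavenger receptor, one of -0.16 (unadjusted p = 0.046, adjusted p = 0.801 from limma). Their directions are opposite. Among 7 measured follicular genes none passed without adjustment, and Ccr7, the receptor that guides cells to the T cell border, and Satb1, a chromatin organiser, differed by -0.08 and -0.0083.

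In the Notch pathway most genes of the processing and nuclear machinery lay above background and most ligand genes did not. Of 8 ligands and further receptors only Notch1 and the ligand gene Dll4 were above background in all arrays, Notch1 with a log2 difference of 0.0022 (adjusted p = 0.994 from limma). Dll4 lay near background, at 6.02 in WT and 6.06 in CD37KO cells on average. Jag1, another ligand gene, passed without adjustment (log2 difference -0.18, unadjusted p = 0.0259, adjusted p = 0.801 from limma) but was below background in all 6 arrays. Dll1, the ligand of the marginal zone, was below background in all arrays (5.44 to 5.62 in WT and 5.40 to 5.60 in CD37KO cells). Of 28 genes of Notch processing and the nuclear complex, 25 were above background in all arrays and none passed an unadjusted p under 0.05, with a median log2 difference of -0.03. Psenen, a subunit of gamma-secretase, differed by -0.08 and Neurl3, a ubiquitin ligase, by 0.06. Of 8 Notch target genes, Il2ra alone passed without adjustment. Il2ra, a chain of the interleukin-2 receptor, was at 7.14, 7.17 and 7.42 in WT and at 7.43, 7.72 and 8.04 in CD37KO cells (log2 difference 0.49, unadjusted p = 0.0102, adjusted p = 0.801 from limma).

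**Figure D5:**
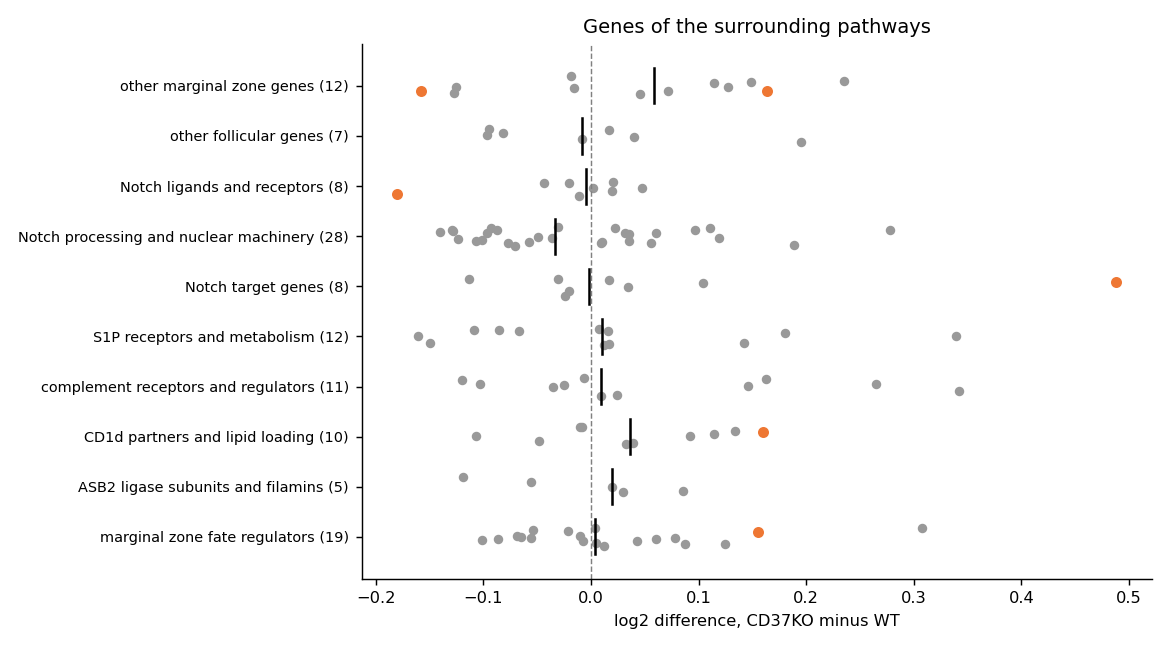
Log2 difference between CD37KO and WT arrays (3 each) for each measured gene of 10 of the 11 lists, with the number measured in brackets and a black bar at the median of the list; vertical scatter has no meaning. In orange are the 6 genes with an unadjusted limma p under 0.05, and Il2ra among the Notch targets lies at 0.49.

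Partners of the single members were read next. Of 12 genes of S1P receptors and metabolism, 11 of complement receptors and regulators and 5 of the ASB2 ligase and filamins, none passed an unadjusted p under 0.05. Their median log2 differences were 0.0098, 0.0093 and 0.02. Gna13 and Gnai2, which encode G proteins that S1P receptors couple to, differed by 0.0076 and 0.01, and the complement genes Cfp, for properdin, and Cr1l by 0.16 and -0.10. Cd81, which encodes a tetraspanin that associates with CR2, was at 11.59, 11.40 and 11.52 in WT and at 11.59, 11.35 and 11.60 in CD37KO cells (log2 difference 0.0098, adjusted p = 0.985 from limma). Flna, the filamin that ASB2 marks for degradation, had a log2 difference of -0.12 (adjusted p = 0.801 from limma), and Elob, a subunit of the ligase, one of 0.09 (adjusted p = 0.833 from limma). Of 10 CD1d partners, B2m, the light chain of CD1d and MHC class I, had a log2 difference of 0.16 (unadjusted p = 0.0312, adjusted p = 0.801 from limma), with 13.11 to 13.17 in WT and 13.23 to 13.34 in CD37KO cells. Of 19 regulators of the marginal zone fate, Rela, a subunit of NF-kappaB, had one of 0.15 (unadjusted p = 0.0473, adjusted p = 0.801 from limma).

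Genes of neighbouring B cell states were read beside these. Of 7 genes of transitional B cells, Rag1 had a log2 difference of 0.24 (unadjusted p = 0.0375, adjusted p = 0.801 from limma). Of 5 genes linked to B-1 cells, which carry CD43 and are removed in the isolation, the aryl hydrocarbon receptor gene Ahr had one of -0.29 (unadjusted p = 0.00772, adjusted p = 0.801 from limma) and the transcription factor gene Bhlhe41 one of -0.27 (unadjusted p = 0.0224, adjusted p = 0.801 from limma). Over these 5 genes, 3 differences were positive and 2 negative, with a median of 0.0097. Ahr was well above background in the cells that remained, at 10.08 to 10.24 in WT and 9.77 to 9.99 in CD37KO cells. Its groups did not overlap, as for 7.57% of all genes in that direction. Which of the remaining B cells its RNA came from was not tested. Of 6 plasma cell genes none passed without adjustment. Among genes of other cells in the spleen, all 12 endothelial and stromal genes had a negative log2 difference, as had 11598 of all 19935 genes, and 4 of the 12 passed an unadjusted p under 0.05, beside 2.99% of all genes in that direction. Only 4 of the 12 lay above background in all arrays. Of the 4 that passed, Igfbp7, a secreted protein gene of vessels, differed by -0.71 and Sparc, a matrix protein gene, by -0.37, while Kdr and Pdgfra were below background in all 6 arrays. The array means of the list were 6.11 to 6.22 in WT and 5.93 to 6.05 in CD37KO cells. At the same unadjusted threshold 2 of 12 dendritic cell genes were lower, and 6 of the 12 lay above background in all arrays. For T cell genes this was 1 of 10, with 3 above background, and for platelet genes 2 of 4, with 2 above background, 1 of which was among the lower ones. No NK cell gene (of 7, 3 above background) or erythroid gene (of 6, 3 above background) passed. None of these genes was called after adjustment, and their part in the values of the marginal zone and follicular genes was not tested.

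The genes with the most similar pattern over the 6 arrays were ranked among 9865 genes above background, by Pearson's r as a description of arrays that share 1 normalization. For the difference between the sides these were Dusp1, Mtx1 and Elovl6, each with r = 0.99. For Cr2 they were Lrif1 (r = 0.98), Tgif1 (r = 0.97) and Reps1 (r = 0.97), and for Fcer2a Aacs (r = 0.99), Pnrc1 (r = 0.97) and Eif6 (r = 0.97). Their own ranges were 0.11 to 0.52 on the log2 scale, and none was called between the genotypes.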

How the data were processed

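Gene arrays of splenic B cells, negative for CD43 and positive for B220, came from 3 WT and 3 CD37KO mice. The deposited table holds 1 log2 value for each probe set and array, normalized by the authors. The submitters' processing notes name RMA and the genome build mm8. The software was not given in the sources used here. RMA draws low signals together, so differences near background are understated. Of 35361 probe sets, 21780 name 1 gene, 1605 several and 11976 none in the annotation used here, and 91 of the gene IDs were not found in the GRCm38.p6 gene table. The brightest probe set of each gene was kept, which gave 19935 genes. Because builds differ, coordinates are given for the RefSeq upstream sequences only.

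The genotypes were compared over all 6 arrays by lmFit and eBayes of limma 3.58.1 (R 4.3.3), with two-sided p-values adjusted by Benjamini-Hochberg over the 19935 genes, a threshold of 0.05 and 95% intervals. The script was tested on simulated data. Exact permutation tests used scipy 1.17.1. The number of arrays limits the precision. Members and lists were chosen with earlier results of these data known. By rule, the genes to name were the 9 members, Cd37, Cd1d2, S1pr1, Itgb7, and of each list up to 4 genes above background at an unadjusted p under 0.05, or else the 2 with the highest level, and the 3 most alike genes per pattern. Of the genes this rule gives for the marker lists and for partners of CR2, the text names only a part. The other marker genes are covered by counts or means of their lists. Dll1, Jag1, Kdr and Pdgfra were named after their values were seen. TGGGAA was chosen after other letter strings had been looked at. Alternatives were another quantile normalization, median centring, the mean of probe sets, ordinary least squares, a filter on genes below background, a trended and robust eBayes, the replicate number as a block, array weights, macrophage or neutrophil means as covariates, leaving out each array or member, and other background levels. Listed genes without a probe set of their own were not analysed here.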

Additional observations from a re-analysis of the deposited data

How the results depend on the processing

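None of the 9 members and none of the 126 pathway genes was called after adjustment under any alternative run, and all 9 members stayed above background at both other levels. Each member has 1 probe set, so the mean of probe sets could not change the members' values. Neither that mean nor median centring could move the difference between the sides. The count of changed genes over the whole array was 11. It was 19 with array weights, 3 with ordinary least squares, 2 with the neutrophil mean as a covariate and 4 to 14 when 1 array was left out (for CD37KO replicates 1 to 3 the counts were 4, 14 and 4, and for WT replicates 1 to 3 they were 4, 6 and 5). The replicate numbers were not shown to pair the mice: the deviations of same-numbered arrays from their group means correlated by 0.24, 0.0068 and -0.14, and with the replicate block 4 genes were called. Of the members, Asb2 alone then passed an unadjusted p under 0.05, beside 5.3% of all genes. The difference between the sides was 0.05 and ran from -0.03 without Asb2 to 0.09 over all settings. It moved by less than the spread within genotypes, though only just without Asb2, where the move was larger than the difference itself. Its sign turned without Asb2, without Cd55 (-0.0045) and with the neutrophil mean as a covariate (-0.03).

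The sign turned for some members. Cr2 was at 0.075 with array weights, 0.0028 with the macrophage mean and 0.0092 with the neutrophil mean as a covariate, and with the last Cd1d1 was at 0.25 and Asb2 at -0.014. When 1 array was left out, Cr2 ran from -0.087 to 0.021, S1pr3 from -0.11 to 0.015, Fcer2a from -0.024 to 0.065 and Klf2 from -0.038 to 0.085. The cause was not tested. The 6 pathway genes at an unadjusted p under 0.05 became 19 of 126 with array weights, beside 17.4% of all genes. Among genes above background they were 3 of 108, beside 6.17% of all genes in that fit. When 1 array was left out they ran from 3 to 21 of 126. The 3 were without CD37KO replicate 3, beside 2.9% of all genes. The 21 were without CD37KO replicate 2, beside 12.7% of all genes. Near background, where RMA draws signals together, differences are understated.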
